A study of Mus musculus with 2 samples.

Results

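Atoh1, Spdef, Gfi1, Foxa3, Creb3l1, Creb3l4 and Sox4 encode transcription factors of the goblet and secretory lineages of the gut lining. The 7 genes were taken by symbol, and each had 1 row among the 31253 gene rows of the count matrix. The series concerns chronic stress and intestinal stem cell ageing, as its title says. Single cells came from duodenal crypts, the pits of the intestinal lining that hold its stem cells, of wild-type mice in the groups ES and NT, letters that the labels do not spell out. Cells of 5 animals were pooled in each group, so each group is 1 library and no p-value between the groups can be given. The matrix tells its libraries apart by the number at the end of each barcode, and no label ties that number to ES or NT. They are therefore called library 2 and library 1, and no direction between ES and NT is drawn. The ages of the mice, and any other allele or agent, are not given in the sources used here.

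Library 2 held 6446 barcodes with 54877667 UMIs (unique molecular identifiers, which stand for captured RNA molecules), and library 1 held 6310 barcodes with 54316199 UMIs. With at least 500 genes and at most 25% mitochondrial UMIs, 3727 cells of library 2 (median 11800 UMIs) and 4057 cells of library 1 (median 10854 UMIs) were kept. The libraries shared 40 barcode sequences, of which 21 were kept in each. Levels are CPM, the UMIs of a gene per 1000000 UMIs summed over the cells of a class, with exact 95% Poisson intervals; ratios of 2 levels carry the exact conditional 95% interval and shares of cells the Clopper-Pearson interval. All of these intervals cover counting error only. UMIs were captured at transcript ends and not scaled to length, so levels were compared between cells and not between genes.

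In the crypt, cells that leave the stem cell zone take an absorptive or a secretory fate through Notch signalling between neighbours. A cell with active Notch makes HES1, which represses Atoh1, and a cell that escapes this keeps ATOH1, displays Notch ligands such as DLL1 and DLL4, and can become a goblet, Paneth or enteroendocrine cell. SPDEF and GFI1 act after ATOH1 in the goblet and Paneth branch, FOXA3 is a forkhead factor of goblet cells, CREB3L1 and CREB3L4 are membrane-bound factors that are cut free to drive secretory pathway genes, and SOX4 is a factor of stem and progenitor cells with a known role in the tuft and enteroendocrine lineages.

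Cells were put into classes by the UMIs of marker genes, none of which is a member; the libraries were classed by the same thresholds. Goblet-like cells, which passed a rule on 12 goblet genes such as Muc2, Fcgbp and Clca1, numbered 579 in library 2 and 510 in library 1, with medians of 11020 and 9867 UMIs. The stem-like class (Lgr5, Olfm4 and 10 more genes) held 624 and 852 cells, the Paneth-like class (lysozyme and defensins) 154 and 196, the enteroendocrine-like class 79 and 57, and the tuft-like class 57 and 25. Of the Paneth-like cells, 128 and 79 also passed the goblet rule. A further 79 cells of library 2 and 26 of library 1 passed both rules with at least 40 UMIs of Muc2, Fcgbp, Clca1 and Zg16 per 10000, and are called cells with goblet and Paneth markers. Cells with UMIs of the Notch ligands Dll1 and Dll4 or of Hes6 and Mfng that passed no other secretory rule, here Notch ligand marker cells, numbered 53 and 52. The genes that led this class by fold included the enteroendocrine factors Nkx2-2, Neurod1 and Insm1, and none of its rule's markers was among the first 10. Cells of the Ptprc and Cd3 rule, led by T cell genes such as Trgv2, Fasl and Prf1, numbered 238 and 284 with medians of 3227 and 2448 UMIs, and served as the class that should lack goblet factors. The goblet threshold was 64 marker UMIs per 10000 UMIs, and between 51.2 and 64 lay 33 cells of library 2 and 72 of library 1, and between 64 and 80 lay 74 and 68.

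RefSeq promoter sequences (GRCm38.p6, the build of the files) were found for 6 of the 7 genes. The 250 bases before the start are shown for the goblet factors Spdef and Foxa3 and for Sox4, whose pattern over the classes was the opposite one; capitals mark every match, on either strand, to a set of motifs. These were the E-box CAGCTG and a second E-box, CAGATG, the kind of site that bHLH factors such as ATOH1 bind. The others were TGGGAA, the core of sites of RBPJ (the DNA-binding partner of Notch), the forkhead core TGTTTA and the TATA box TATAAA. The windows are chr17:27728952-27729201 for Spdef, chr7:19023540-19023789 for Foxa3 and chr13:28953700-28953949 for Sox4, each written 5' to 3' on the minus strand, from which the gene is read.
Spdef: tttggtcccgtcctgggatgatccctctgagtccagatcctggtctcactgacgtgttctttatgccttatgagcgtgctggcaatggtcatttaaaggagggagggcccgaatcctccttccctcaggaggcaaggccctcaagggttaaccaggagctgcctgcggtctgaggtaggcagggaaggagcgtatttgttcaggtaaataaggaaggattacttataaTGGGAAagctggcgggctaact
Foxa3: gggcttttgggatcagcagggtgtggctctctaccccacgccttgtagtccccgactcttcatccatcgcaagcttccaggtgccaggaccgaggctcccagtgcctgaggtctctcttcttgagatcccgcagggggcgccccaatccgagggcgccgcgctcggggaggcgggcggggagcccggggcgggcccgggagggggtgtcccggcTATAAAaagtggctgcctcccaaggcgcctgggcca
Sox4: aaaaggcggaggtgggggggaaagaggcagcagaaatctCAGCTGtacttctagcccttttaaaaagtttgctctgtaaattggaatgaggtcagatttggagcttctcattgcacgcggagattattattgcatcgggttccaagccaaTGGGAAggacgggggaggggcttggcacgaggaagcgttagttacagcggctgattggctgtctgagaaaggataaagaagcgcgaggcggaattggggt
Spdef held the RBPJ core, whose first base was at position -22 from the start, and Foxa3 the TATA box at position -36. Sox4 held the first E-box at position -211 and the RBPJ core at position -100. Of the 32851 mouse promoters of this length, 21.6% held the RBPJ core, 12.4% the TATA box, 13% the first E-box, 14.4% the second and 12.03% the forkhead core, so single matches of this kind are common. The windows of Atoh1 and Gfi1 held none of these motifs, and 1 of 3 windows of Creb3l4 held the second E-box, at position -105.

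Among the 7, 6 members were far higher in goblet-like than in stem-like cells in both libraries, and Sox4 was lower. By the rule of a difference of at least 2-fold with the interval off 1 in both libraries, 6 of 7 members were higher in goblet-like cells, beside 6.71% of the 11101 genes tested, and 1 of 7 was lower, beside 5.87%. Their median log2 ratio was 5.20, beside -0.18 over all genes tested. The members were chosen as goblet and secretory factors, so these counts describe them and are no independent evidence of a goblet programme.

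Atoh1, the bHLH factor that opens the secretory fate (ENSMUSG00000073043, chr6:64729125-64731245, plus strand), had 206.5 CPM in goblet-like cells (95% interval 195.6 to 218) and 4.20 in stem-like cells in library 2. In library 1 it had 147.4 (137.6 to 157.6) in goblet-like and 4.03 in stem-like cells. The ratios were 49.2-fold (34.9 to 71.8) in library 2 and 36.5-fold (26.9 to 50.9) in library 1. Goblet-like cells, which held 13.8% and 11.9% of all UMIs, held 82.0% and 79.6% of the Atoh1 UMIs.

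Spdef, an ETS factor of goblet and Paneth maturation (ENSMUSG00000024215, chr17:27714352-27728955, minus strand), had a similar distribution. Its level was 203.7 (192.8 to 215.1) in goblet-like and 4.45 in stem-like cells of library 2, a ratio of 45.8 (32.7 to 66.0), and 115.5 (106.8 to 124.6) in goblet-like and 2.53 in stem-like cells of library 1, a ratio of 45.6 (31.1 to 69.7). Over the 22 sums of class and library, the log levels of Atoh1 and Spdef had a Pearson r of 0.942, which is a description of points that share libraries.

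Gfi1, a zinc finger repressor that acts against the endocrine fate in secretory precursors (ENSMUSG00000029275, chr5:107716657-107726036, minus strand), had 46.4 (41.2 to 52.0) in goblet-like and 0.636 in stem-like cells of library 2 and 25.3 (21.3 to 29.8) in goblet-like and 1.13 in stem-like cells of library 1. The stem-like values rest on 5 and 12 UMIs, so the ratios of 72.9 (30.9 to 226.2) and 22.5 (12.5 to 44.5) have wide intervals. Gfi1 was higher still in the Ptprc and Cd3 marker cells, at 63.0 (48.1 to 81.1) in library 2 and 55.2 (40.6 to 73.4) in library 1, and the goblet-like level was 0.736 times (0.556 to 0.989) and 0.458 times (0.328 to 0.651) theirs. That class held 13.9% and 20.4% of the Gfi1 UMIs and 2.05% and 1.76% of all UMIs. There the Gfi1 UMIs were spread over 47 cells in library 2 and 45 in library 1, with no more than 3 in a cell, with 60 and 47 UMIs in all. Muc2, the main secreted mucin, served as a yardstick: if the Gfi1 UMIs there stood to those of Muc2 as they do in goblet-like cells of the same library, there would be 0.958 and 0.293 of them, so the counts were 62.7 and 160.2 times this goblet ratio to Muc2. Background RNA itself was not measured. GFI1 is also known as a factor of lymphocyte development. Of its family, Gfi1b had 78.3 and 46.3 in tuft-like cells and 1 UMI in the goblet-like cells of each library.

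Foxa3 (ENSMUSG00000040891, chr7:19013284-19023538, minus strand) had the smallest goblet to stem ratio of the 6. It had 87.6 (80.5 to 95.1) in goblet-like and 17.2 (14.4 to 20.3) in stem-like cells of library 2, and 60.3 (54.2 to 67.1) in goblet-like and 11.6 (9.67 to 13.9) in stem-like cells of library 1, ratios of 5.10 (4.22 to 6.20) and 5.19 (4.21 to 6.42). The stem-like UMIs were 7.95 times (6.66 to 9.41) in library 2 and 8.63 times (7.18 to 10.3) in library 1 their goblet ratio to Muc2, and lay in 111 and 107 cells. Foxa3 was also present in enteroendocrine-like cells, at 28.9 and 28.1, and in Paneth-like cells, at 28.3 and 27.3. In cycling progenitor-like cells outside the stem-like class it had 3.44 and 2.97, and in enterocyte-like cells 2.72 and 1.73, beside 3.15 and 1.17 in the Ptprc and Cd3 marker cells, which rest on 3 UMIs and 1 UMI.

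Creb3l1 (ENSMUSG00000027230, chr2:91982328-92024502, minus strand) had 586.1 (567.5 to 605.1) in goblet-like and 13.9 in stem-like cells of library 2, a ratio of 42.3 (34.9 to 51.6), and 400.1 (383.9 to 416.8) in goblet-like and 12.5 in stem-like cells of library 1, a ratio of 32.1 (26.9 to 38.5). Enteroendocrine-like cells came next among the classes outside goblet and Paneth markers, at 121.6 (96.4 to 151.4) in library 2 and 74.9 (53.5 to 102) in library 1, 8.77 and 6.002 times the stem-like level. In stem-like, cycling progenitor-like and enterocyte-like cells and in cells that passed no rule it lay between 11.1 and 19.2. The Ptprc and Cd3 marker cells had 16.8 in library 2 and 50.5 in library 1.

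Creb3l4 (ENSMUSG00000027938, chr3:90237500-90243512, minus strand) had 114.1 (106 to 122.7) in goblet-like and 3.69 in stem-like cells of library 2, a ratio of 30.9 (21.4 to 46.5), and 80.4 (73.2 to 88.1) in goblet-like and 4.03 in stem-like cells of library 1, a ratio of 19.9 (14.6 to 27.9). Unlike Creb3l1, it had 2 UMIs in the enteroendocrine-like cells of library 2 and none in those of library 1, where a count of 0 allows up to 5.62 CPM by the floor of 3 UMIs used for counts of 0. In tuft-like cells it had 23.3 (11.6 to 41.7) in library 2 and 25.7 (8.35 to 60.0) in library 1, which rest on 11 UMIs in 8 cells and 5 UMIs in 4 cells. These were 6.31 and 6.37 times the stem-like level and 5.70 and 10.1 times the goblet ratio to Muc2. In enterocyte-like cells Creb3l4 had 2.72 in library 2 and no UMI in library 1, where a count of 0 allows up to 0.433 CPM.

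**Figure D1:**
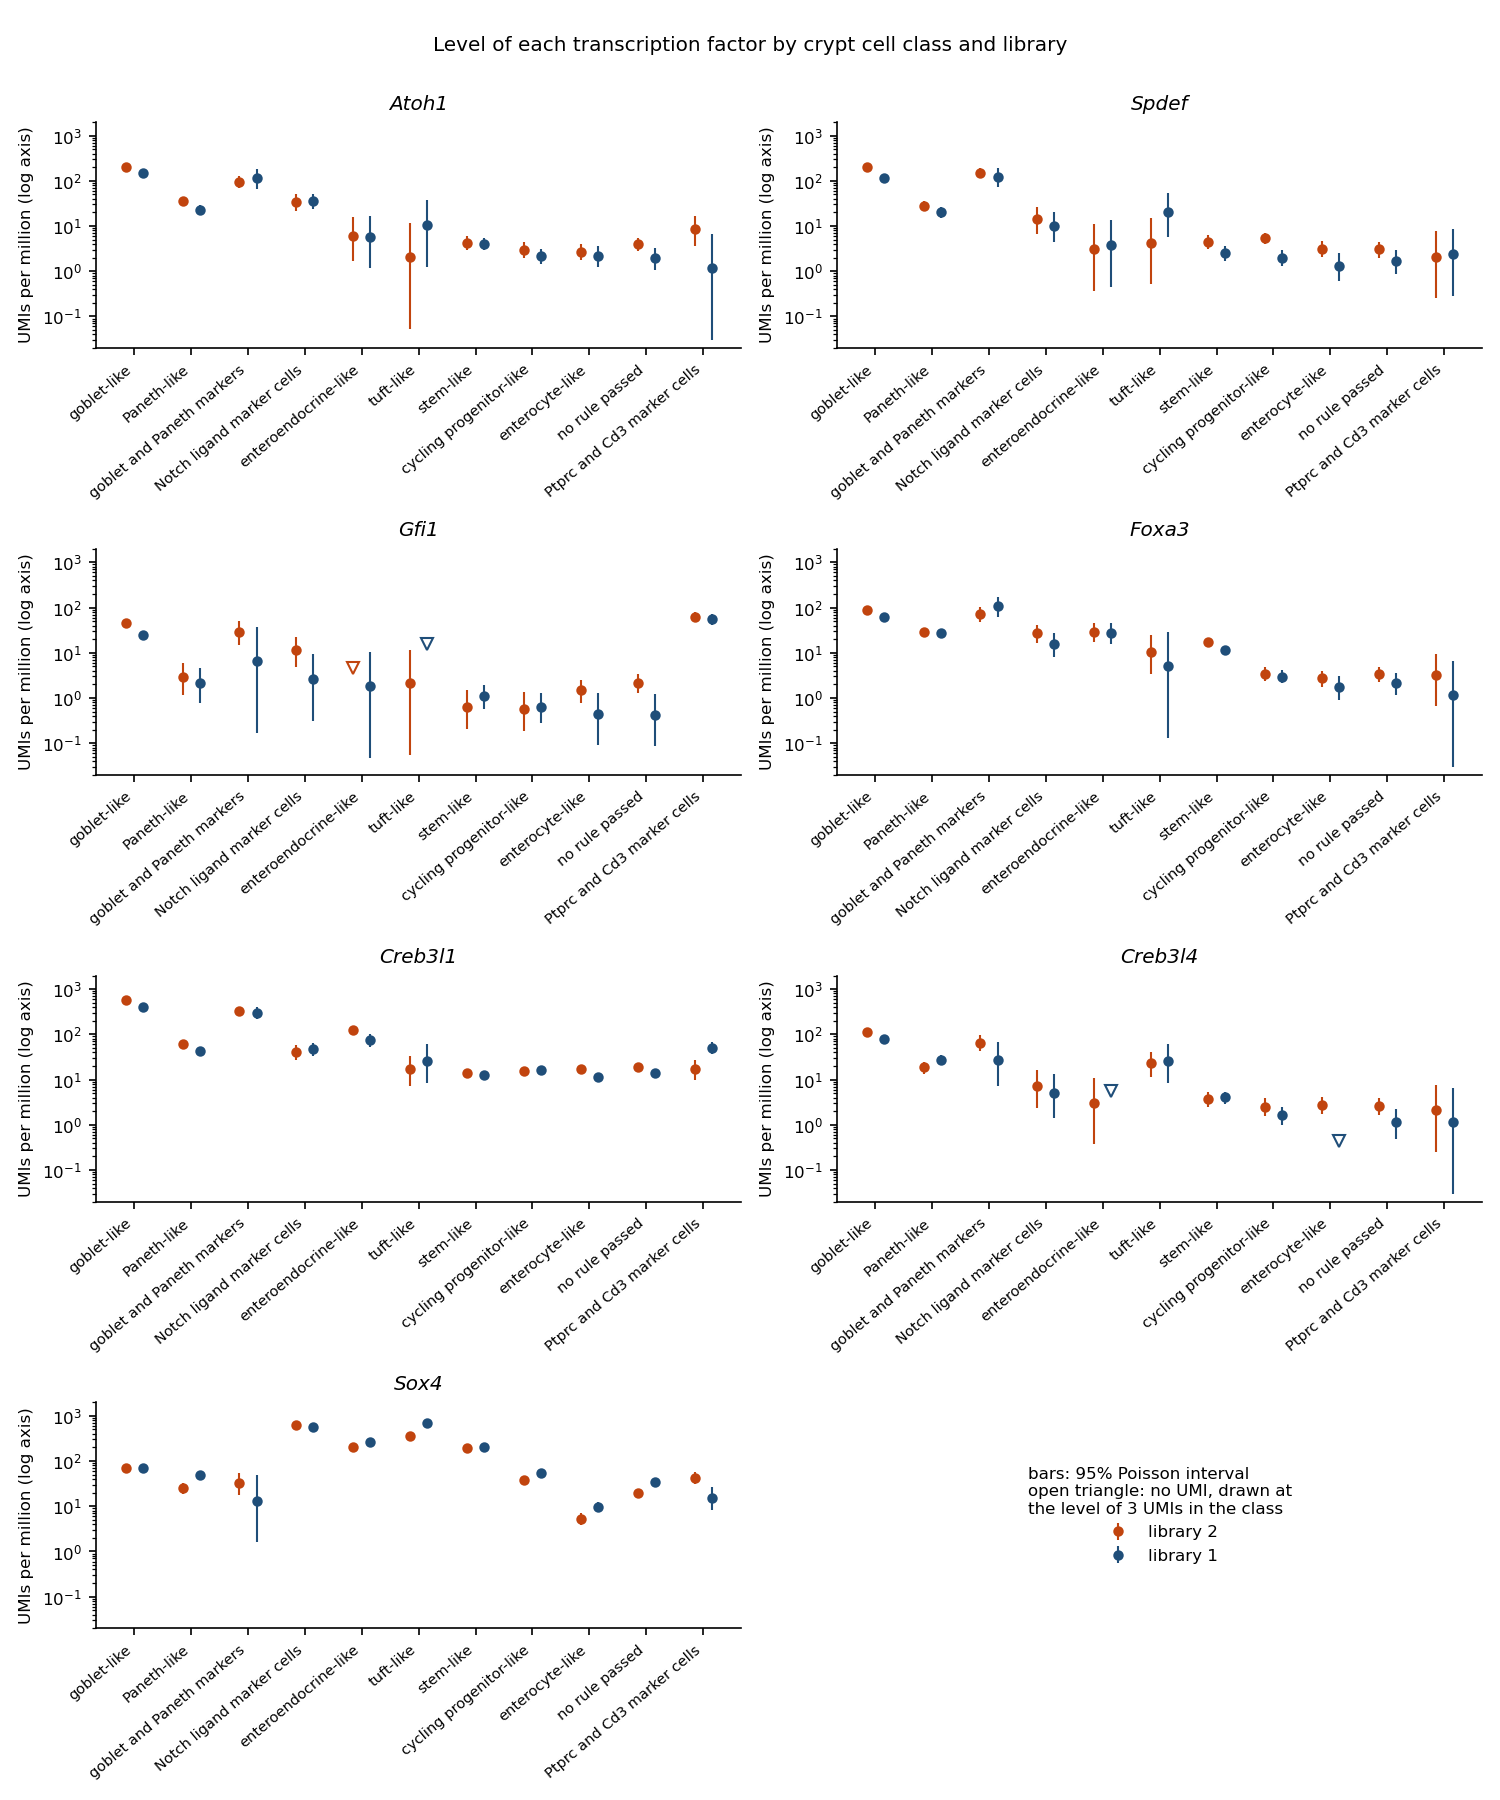
Level of each gene in CPM (log axis) in each class (horizontal axis), for library 2 (left, orange) and library 1 (right, blue); bars are 95% Poisson intervals, and open triangles are classes with no UMI, drawn at the level of 3 UMIs. The 6 goblet factors have their highest epithelial level in goblet-like cells or in cells with goblet and Paneth markers, whereas Sox4 is highest in Notch ligand marker cells, at 630.8 and 572.4, and in tuft-like cells.

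Sox4 (ENSMUSG00000076431, chr13:28948919-28953713, minus strand), an HMG-box factor, had the opposite pattern. Goblet-like cells had 70.4 (64.1 to 77.2) in library 2 and 70.6 (63.9 to 77.9) in library 1, beside 196.3 (186.6 to 206.3) and 203.5 (195.1 to 212.3) in stem-like cells, ratios of 0.359 (0.322 to 0.399) and 0.347 (0.311 to 0.386). Stem-like cells held 44.0% and 48.6% of its UMIs and goblet-like cells 12.9% and 9.07%, about their share of all UMIs or less. Sox4 was above its stem-like level in Notch ligand marker cells, at 630.8 (573.5 to 692.2) in library 2 and 572.4 (520.5 to 628.1) in library 1, which is 3.21-fold (2.89 to 3.57) and 2.81-fold (2.53 to 3.12). It was also above it in tuft-like cells, at 359.8 (307.7 to 418.1) and 699.2 (586.6 to 827.1), though the ratio of 1.83 in library 2 was under 2-fold. Those UMIs lay in 26 of 57 tuft-like cells of library 2 and 12 of 25 of library 1. The highest 10% of tuft-like cells held 54.7% and 60.3% of them, with up to 31 and 28 in a cell. Enteroendocrine-like cells had 206.7 and 269.6. At the low end were enterocyte-like cells, with 5.20 and 9.83, below the 37.9 and 54.2 of cycling progenitor-like cells. In both libraries Notch ligand marker and tuft-like cells were the highest, then enteroendocrine-like, stem-like and goblet-like cells, and enterocyte-like cells were the lowest; tuft-like cells came before Notch ligand marker cells in library 1 only. Enteroendocrine-like cells did not differ from stem-like cells beyond the counting interval in library 2, at 1.05 times (0.877 to 1.26), and were higher in library 1, at 1.32 times (1.11 to 1.57).

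**Figure D2:**
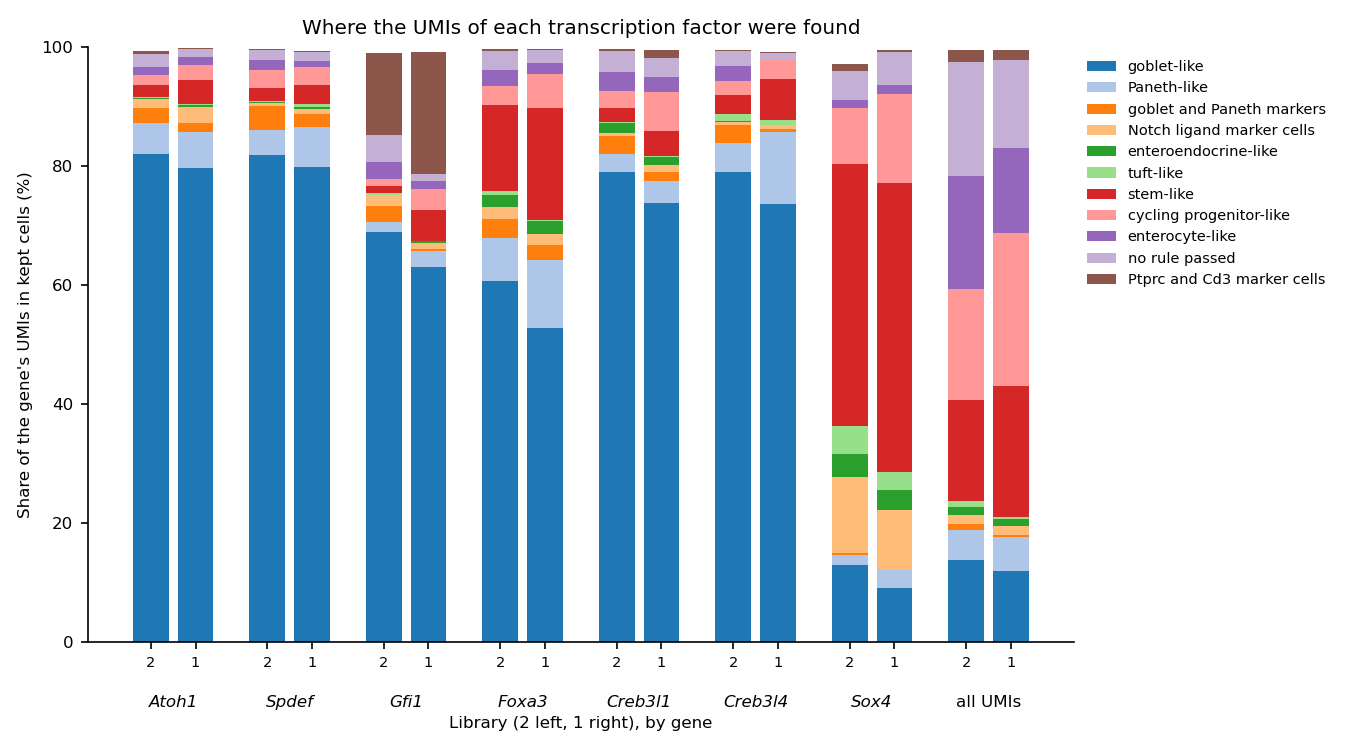
Share of each gene's UMIs in kept cells (vertical axis, percent) found in each class (colours), for library 2 (left) and library 1 (right), with the share of all UMIs at the far right. Goblet-like cells hold 82.0% and 79.6% of the Atoh1 UMIs but 12.9% and 9.07% of those of Sox4, the Ptprc and Cd3 marker cells 13.9% and 20.4% of those of Gfi1, and stem-like cells 14.6% and 18.9% of those of Foxa3; bars end short of 100% where cells passed 2 rules or a rule on rare cell types.

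Muc2 was also counted outside the goblet-like class, at 112.3 CPM in stem-like and 98.7 in Ptprc and Cd3 marker cells of library 2, and at 61.6 and 37.6 in those of library 1. For Atoh1 and Spdef, the UMIs in stem-like cells were 0.824 (0.567 to 1.16) and 0.886 (0.617 to 1.23) times the goblet ratio to Muc2 in library 2, and 1.23 (0.887 to 1.65) and 0.982 (0.647 to 1.43) times in library 1. All 4 intervals include 1. The stem-like UMIs of Atoh1 and Spdef thus did not stand above the ratio to Muc2 pooled over all goblet-like cells. That ratio was not constant inside the class. The low tertile of mature goblet marker UMIs, defined below, held 347 Atoh1 and 2258 Muc2 UMIs in library 2. The high tertile held 478 and 18062. For library 1 the counts were 277 and 2146 in the low and 298 and 9524 in the high tertile. The stem-like UMIs were not compared with the ratio of any single tertile. Creb3l1 was at 0.959 (0.787 to 1.16) in library 2 and 1.40 (1.17 to 1.65) in library 1, and Creb3l4 at 1.31 (0.877 to 1.88) and 2.25 (1.63 to 3.02). For Foxa3 the same measure, given above, was over 6 times in both libraries, and for Sox4 it was 113 times (107.4 to 118.7) and 129 times (123.6 to 134.5).

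To compare cells of unlike depth, each cell was thinned to 2000 UMIs and shallower cells were left out, 80 and 100 goblet-like cells in libraries 2 and 1. At least 1 Atoh1 UMI was then found in 33.9% of goblet-like cells in library 2 (29.7 to 38.2) and 26.1% in library 1 (21.9 to 30.6), beside 2.04% (0.559 to 5.14) and 0.474% (0.012 to 2.61) of the Ptprc and Cd3 marker cells. Without thinning, the goblet-like shares were 68.2% and 55.7%. Creb3l1 was found in 64.9% and 52.4% of thinned goblet-like cells, beside 3.06% and 10.9% of the Ptprc and Cd3 marker cells. Sox4 was found in 7.62% and 10.2% of goblet-like cells, 33.0% and 32.1% of stem-like cells and 64.2% (49.8 to 76.9) and 58.8% (44.2 to 72.4) of Notch ligand marker cells, beside 2.04% and 2.84% of the Ptprc and Cd3 marker cells. In tuft-like cells the Sox4 share was 31.1% (18.2 to 46.7) and 33.3% (14.6 to 57.0), close to that of stem-like cells despite the higher level. Any member was found in 87.6% and 78.5% of thinned goblet-like cells, and 3 or more members in 25.3% and 19.3%.

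Among thinned goblet-like cells, Creb3l1 was found in 71.6% (64.2 to 78.3) of cells with an Atoh1 UMI against 61.5% (56.0 to 66.8) of cells without one in library 2, where the intervals overlapped, and in 64.5% (54.7 to 73.5) against 48.2% (42.4 to 54.0) in library 1, where they did not. For Atoh1 and Spdef the shares were 31.4% with and 30.9% without Atoh1 in library 2, and 27.1% with and 19.1% without it in library 1, and their intervals overlapped widely. Cells with Creb3l1 had Sox4 in 5.25% (3.09 to 8.27) against 12% (7.58 to 17.8) of cells without Creb3l1 in library 2, and in 8.84% (5.41 to 13.5) against 11.8% (7.63 to 17.2) in library 1, with overlapping intervals in both. In library 1, Foxa3 was found in 23.4% (15.7 to 32.5) of cells with Atoh1 against 9.90% (6.78 to 13.8) without it. Creb3l1 was found there in 70.9% (57.1 to 82.4) of cells with Foxa3 against 49.6% (44.3 to 54.9) without it. Neither of these overlapped. All remaining pairs of members had overlapping intervals, and in library 2 those of every pair overlapped.

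In Paneth-like cells, 4 of 6 members with enough UMIs were higher than in stem-like cells (background 1.87%) and Sox4 was lower (background 64.2%). Class marker and mitochondrial genes took 48.8% of the UMIs of Paneth-like cells in library 2 and 46.2% in library 1, beside 12.7% and 12.5% in stem-like cells, which lowers the CPM of all other genes there. Atoh1 had 35.5 (28.3 to 43.9) in Paneth-like cells of library 2 and 23.0 (17.7 to 29.4) in library 1, 8.45 and 5.71 times its stem-like level, and with those genes left out of the totals 14.4 and 9.28 times. Spdef had 28.3 and 20.1, Creb3l1 60.0 and 42.1, and Creb3l4 18.6 and 27.3. Goblet-like cells had 5.82 times (4.67 to 7.35) and 6.40 times (4.96 to 8.39) the Paneth-like level of Atoh1, and with those genes left out of both totals, chosen after seeing the data, 3.50 times (2.81 to 4.42) and 4.03 times (3.12 to 5.28). Defensins outside the marker list, such as Defa41, stayed in those totals. The TMM scaling factors of Paneth-like cells were 0.406 and 0.479, beside 1.04 and 1.04 for goblet-like cells. Scaling by them would lower these ratios further.

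Muc2 was at 703.3 in the Paneth-like cells of library 2 and 440.9 in those of library 1, well above the Ptprc and Cd3 marker cells. Atoh1 stood there at 1.11 times (0.886 to 1.38) in library 2 and 0.977 times (0.752 to 1.248) in library 1 its goblet ratio to Muc2, and Spdef at 0.899 and 1.09 times. Creb3l1 was below that ratio, at 0.662 (0.558 to 0.780) and 0.658 (0.544 to 0.789), and Foxa3 above it, at 2.09 (1.62 to 2.65) and 2.83 (2.23 to 3.55). The source of the Muc2 UMIs in Paneth-like cells was not tested. Sox4 was lower than in stem-like cells, at 24.9 and 50.0, and remained so with the marker genes left out of the totals, at 0.216 and 0.399 times. TMM scaling, with factors of 1.11 and 1.11 for stem-like cells beside the Paneth-like ones above, would make this Sox4 difference smaller.

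In the cells with goblet and Paneth markers, 5 of 6 members with enough UMIs were higher than in stem-like cells (background 3.1%) and Sox4 was lower (background 8.14%). Spdef had 148.1 (113.8 to 189.5) in library 2 and 120.1 (71.2 to 189.8) in library 1, and Foxa3 had 70.5 and 106.8. The goblet-like level of Spdef was 1.38 times (1.07 to 1.80) in library 2 and 0.961 times (0.604 to 1.63) in library 1 that of these cells. Their medians of 3948 and 2974 UMIs were low, and whether they are droplets with 2 cells was not tested.

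In Notch ligand marker cells, 4 of 6 members with enough UMIs were higher than in stem-like cells, beside 1.63% of genes tested. Besides Sox4 these were Atoh1, with 34.0 (21.8 to 50.6) in library 2 and 35.9 (23.9 to 51.9) in library 1, Creb3l1, with 39.7 and 47.5, and Spdef, with 14.2 and 10.3 from 10 and 8 UMIs. Atoh1 UMIs lay in 7 of 53 cells and 12 of 52 cells, at up to 8 and 10 per cell, and were 6.30 times (4.03 to 9.37) and 14.6 times (9.67 to 21.04) the goblet ratio to Muc2. In the enteroendocrine-like cells, which had Neurog3 at 109.5 and 80.5, Atoh1 had 4 and 3 UMIs, 6.08 (1.66 to 15.6) and 5.62 (1.16 to 16.4) CPM, with intervals that include the stem-like level.

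In the stem-like, cycling progenitor-like, enterocyte-like and Notch ligand marker classes and among cells that passed no rule, 12 cells of library 2 and 14 of library 1 had at least 2 Atoh1 UMIs. They spread over these classes except the enterocyte-like one: 4 and 6 were Notch ligand marker cells, 2 and 3 stem-like, 2 and 5 cycling progenitor-like, and 4 and 0 passed no rule. Their levels of the Notch ligands were high, with Dll1 at 148.3 (106.9 to 200.5) in library 2 and 121.4 (90.4 to 159.7) in library 1, against 18.45 and 16.4 in cells without Atoh1 of the classes that held such cells in that library. Dll4 was at 74.2 and 59.5 against 6.68 and 6.95, and Sox4 at 236.6 (183.3 to 300.4) and 188.1 (148.9 to 234.4) against 92.5 and 134.6. Foxa3 was at 45.9 and 26.2 against 7.78 and 6.91, while Creb3l1 was at 24.7 (9.94 to 50.9) and 166.7 (129.9 to 210.6) against 16.6 and 12.3, and Spdef had 1 UMI there in library 2 and 9 in library 1. These cells were deep, with medians of 24761 and 30492 UMIs against 12873 and 11404, and Dll1 and Dll4 set the rule of the Notch ligand marker class, so part of the difference in ligands was set by that rule. Sox4 was also high in Notch ligand marker cells as a class, at 630.8 and 572.4, and these were 4 of the 12 and 6 of the 14 cells. The part of this class makeup in the Sox4 difference was not tested.

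Goblet-like cells were split into tertiles, 3 bins of equal size over both libraries, by the UMIs of the mature goblet genes Fcgbp, Clca1 and Zg16 per 10000 UMIs, at 116 and 375.8. Sox4 was highest in the low tertile: it had 177 (158.5 to 197.2) in the low and 18.6 (13.1 to 25.5) in the high tertile of library 2, and 116.4 (104.1 to 129.7) in the low and 22.9 (15.2 to 33.1) in the high tertile of library 1, so the high tertile had 0.105 times (0.0729 to 0.147) and 0.197 times (0.129 to 0.290) the low level. Atoh1 went the other way, with 233.4 in the high and 185.6 in the low tertile of library 2 and 243.6 in the high and 98.9 in the low tertile of library 1, ratios of 1.26 (1.09 to 1.45) and 2.46 (2.09 to 2.91). Creb3l4 had high to low ratios of 1.71 (1.40 to 2.098) and 2.71 (2.14 to 3.42), Foxa3 of 1.42 and 2.29, and Spdef of 1.21 and 2.12. In library 2 Spdef was highest in the middle tertile, at 225.1 against 207.5 in the high tertile. Gfi1 had ratios of 1.21 (0.892 to 1.66), which includes 1, in library 2 and 1.74 (1.15 to 2.615) in library 1. For Creb3l1 the libraries went opposite ways, with ratios of 0.881 (0.808 to 0.960) in library 2 and 1.45 (1.31 to 1.61) in library 1.

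**Figure D3:**
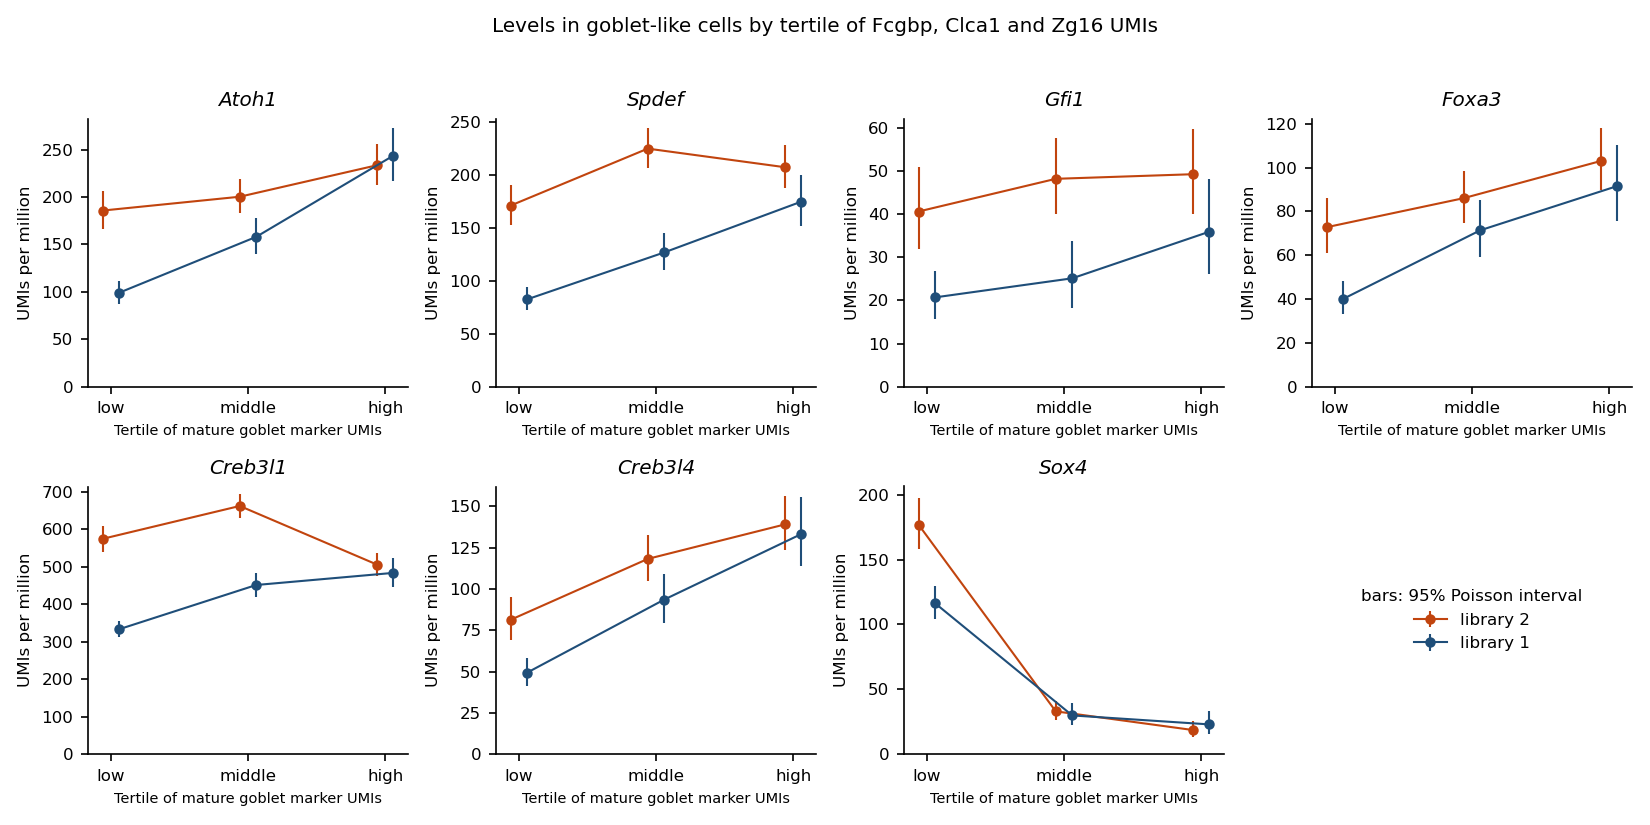
Level of each gene in CPM (vertical axis, from 0) in goblet-like cells by tertile of mature goblet marker UMIs (horizontal axis), for library 2 (orange) and library 1 (blue); bars are 95% Poisson intervals. The Sox4 level in the high tertile is 0.105 and 0.197 times that in the low tertile, and the libraries lie closest together in the high tertile for the other 6 genes.

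The low tertile was also the cycling one, with at least 20 S phase or G2 and mitosis marker UMIs per 10000 in 61.6% and 74.1% of its cells, beside 8.72% and 4.83% of the high tertile. In the low tertile, Sox4 had 95.7 in cycling cells against 421.7 in the 32 cells with under 10 such UMIs in library 2, and 97.3 in cycling cells against 564.4 in the 15 such cells of library 1. The ratios were 0.227 (0.176 to 0.292) and 0.173 (0.128 to 0.235), and the cells with under 10 such UMIs were shallower, with medians of 8489 and 6283 UMIs beside 14056 and 14264. Over all goblet-like cells the ratio was 1.14 (0.927 to 1.41) and 1.35 (1.06 to 1.74), and 93 of 183 and 157 of 240 cycling cells lay in the low tertile. Sox4 UMIs were concentrated: the highest 10% of goblet-like cells held 78.1% of them in library 2 and 68.2% in library 1, with up to 47 and 38 in a cell. In stem-like cells, too, Sox4 was lower in cycling than in non-cycling cells, at 186.4 against 309.6 in library 2 and 188.5 against 265.7 in library 1. Over all goblet-like cells, cycling cells had less Spdef, Foxa3, Creb3l1 and Creb3l4 than non-cycling ones in both libraries. For Foxa3 the ratios were 0.594 (0.486 to 0.724) and 0.508 (0.397 to 0.650). Within the low tertile the Foxa3 ratios were 1.015 (0.631 to 1.70) and 0.577 (0.253 to 1.62), with intervals that include 1. Creb3l4 had 0.813 (0.531 to 1.28) and 0.403 (0.215 to 0.834) there. Spdef stayed lower within that tertile, at 0.711 (0.541 to 0.943) and 0.346 (0.216 to 0.583). Creb3l1 did too, at 0.806 (0.692 to 0.943) and 0.377 (0.2955 to 0.486). For Atoh1 the ratio over all goblet-like cells was 0.895 (0.794 to 1.009) in library 2 and 0.473 (0.407 to 0.549) in library 1. In the low tertile the Atoh1 ratio was 1.28 (0.945 to 1.78) in library 2 and 0.482 (0.304 to 0.806) in library 1. Gfi1 had 0.797 (0.610 to 1.036) and 0.435 (0.2985 to 0.631) over all goblet-like cells.

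Between the libraries, 6 of the 7 members were higher in goblet-like cells of library 2 with intervals above 1, as were 19.5% of genes with at least 100 UMIs, while 17.3% had intervals below 1. Of the 6, 2 passed the rule of at least 1.5-fold, beside 3.36% of genes tested that were higher by that rule and 2.87% that were lower. Spdef was 1.77-fold higher (1.61 to 1.94) and Gfi1 1.83-fold (1.498 to 2.25). Creb3l1 at 1.47 (1.39 to 1.54), Foxa3 at 1.45 (1.27 to 1.66), Creb3l4 at 1.42 (1.26 to 1.60) and Atoh1 at 1.40 (1.29 to 1.53) fell short of 1.5-fold, and Sox4 at 0.997 (0.870 to 1.14) was level. The median log2 ratio was 0.537 over the members and 0.014 over all genes. Each library is 1 pool, so these values compare 2 libraries, not 2 conditions.

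The makeup of the goblet-like class moved with this difference. Library 2 had 26.1% of its goblet-like cells in the low tertile and library 1 had 41.6%, and Muc2 was 1.65-fold higher in library 2. Within the low tertile all 7 members were at least 1.5-fold higher in library 2, beside 5.86% of genes with at least 100 UMIs there that were higher and 2.26% that were lower: Atoh1 1.88 (1.60 to 2.21), Spdef 2.08 (1.75 to 2.47), Gfi1 1.96 (1.38 to 2.81), Foxa3 1.82 (1.41 to 2.36), Creb3l1 1.73 (1.58 to 1.89), Creb3l4 1.65 (1.30 to 2.09) and Sox4 1.52 (1.30 to 1.78). Sox4 lay at the 1.5-fold limit. Its UMIs sat in few goblet-like cells, with up to 47 and 38 in a cell, which the interval does not cover. How far its low tertile ratio rests on single cells was not tested. Within the middle tertile Spdef at 1.77 (1.51 to 2.09) and Gfi1 at 1.92 (1.34 to 2.79) were past 1.5-fold (background 3.25% higher and 2.14% lower). Within the high tertile none was (background 2.72% higher and 1.11% lower), and the ratios ran from 0.810 for Sox4 to 1.37 for Gfi1. The difference between the tertiles was not tested. In the low tertile the median mature marker score also differed, at 68.5 in library 2 and 51.4 in library 1, as did the share of cycling cells, and their part in the ratios was not tested.

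**Figure D4:**
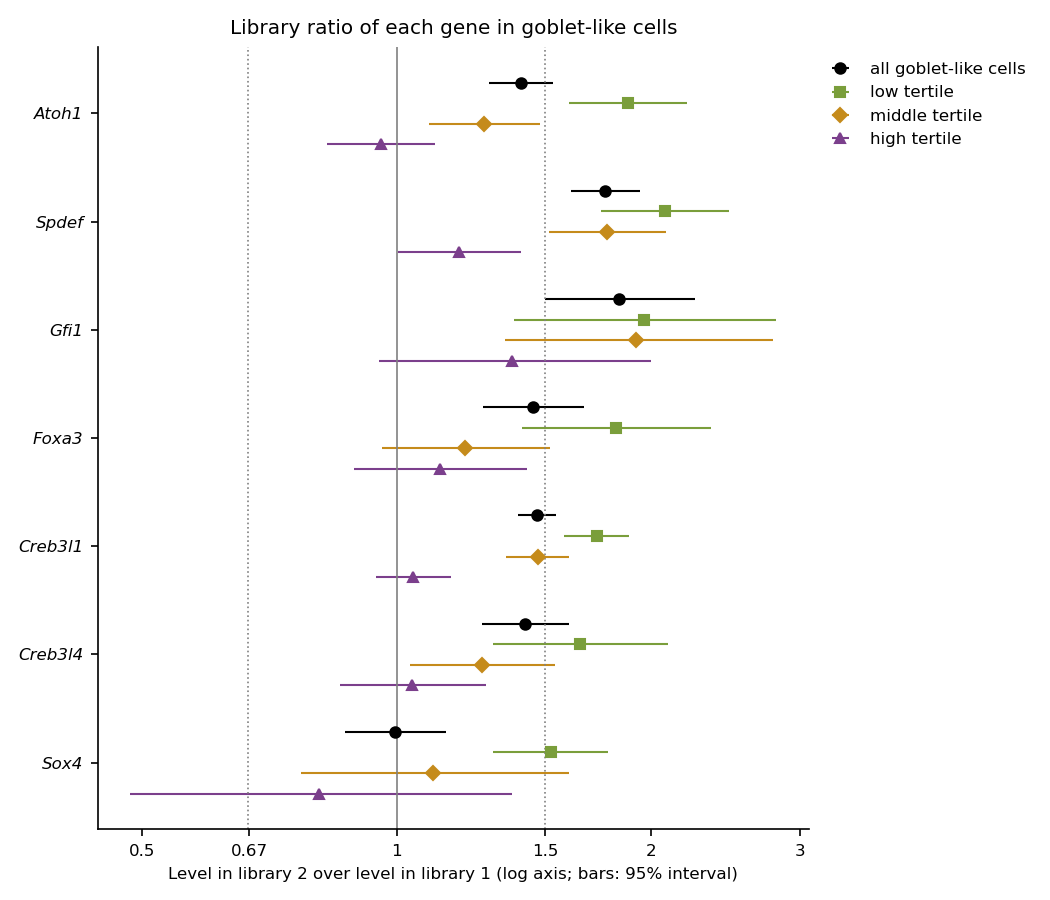
Ratio of the level in library 2 to that in library 1 (horizontal log axis; bars are 95% intervals, dotted lines 1.5-fold either way) for each gene in all goblet-like cells and in each tertile of mature goblet marker UMIs. All 7 ratios of the low tertile lie at or above 1.52, and those of the high tertile lie between 0.810 and 1.37.

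Hes1, the Notch target that represses Atoh1, had a ratio of library 2 to library 1 below 1 in all 11 classes, with intervals that include 1 in tuft-like cells and in cells with goblet and Paneth markers. The ratios ran from 0.274 in enteroendocrine-like to 0.769 in Notch ligand marker cells, with 0.298 in the Ptprc and Cd3 marker cells. It was at 89.1 in library 2 and 180.3 in library 1 in goblet-like cells, 0.494-fold (0.446 to 0.548). The ratio was 0.499, 0.580 and 0.683 in the tertiles from low to high, and in stem-like cells 0.717 (0.681 to 0.755), where Atoh1 was at 1.04 (0.641 to 1.68).

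In stem-like cells 1 member of 6 with at least 20 UMIs stood apart between the libraries (background 2.84% higher and 1.68% lower): Spdef, at 1.76-fold (1.03 to 3.02) from 35 and 27 UMIs, beside Muc2 at 1.82-fold in the same cells. With cells thinned or the stricter cell filter no member stood apart there. Sox4 was at 0.964 (0.903 to 1.03). In Paneth-like cells 2 members of 6 stood apart (background 3.06% higher and 12.6% lower): Atoh1, at 1.54-fold (1.10 to 2.17), beside Muc2 at 1.60-fold, and Sox4, at 0.498-fold (0.361 to 0.680), while the median log2 ratio of all genes in this class was -0.210. With cells thinned neither stood apart. In tuft-like cells Sox4 was at 0.515-fold (0.408 to 0.650), with 25 cells in library 1. In Notch ligand marker cells Sox4 was at 1.10 (0.964 to 1.26) and Atoh1 at 0.947 (0.525 to 1.69). Spdef was also higher in cycling progenitor-like cells, at 2.68-fold (1.62 to 4.55), beside Muc2 at 1.92-fold. The Spdef ratio in enterocyte-like cells was 2.44 (1.12 to 5.87), beside Muc2 at 2.44-fold, and Creb3l4 had 24 and 0 UMIs there. Cells that passed no rule had Gfi1 at 5.05-fold (1.49 to 26.6) from 19 and 3 UMIs. They had Atoh1 at 1.99-fold (1.05 to 4.01), beside Muc2 at 1.95-fold. The ratios of Creb3l1 and Sox4 that stood apart in these classes are given below.

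Of 23 genes of the Notch pathway, 18 had enough UMIs. In goblet-like cells 2 were higher and 3 lower than in stem-like cells, beside 6.71% and 5.87% of all genes tested. The higher ones were the ligands: Dll4 had 102.7 in goblet-like and 6.62 in stem-like cells of library 2 and 71.3 in goblet-like and 7.13 in stem-like cells of library 1, and Dll1 was 10.3 and 8.11 times higher. Both genes set the rule of the Notch ligand marker class, which took ligand-positive cells out of the stem-like class. With the 26 and 33 of those cells that also passed the stem rule counted as stem-like, an alternative chosen after seeing the data, Dll4 was 9.32 times (7.48 to 11.7) and 6.48 times (5.29 to 7.995) higher and Dll1 7.22 and 5.53 times. Lower were the receptors Notch1, at 0.175 and 0.178 times, and Notch2, at 0.166 and 0.276 times, and Hes1, at 0.309 and 0.448 times. The list's median log2 ratio was -0.17, near that of all genes.

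Of 27 other lineage transcription factors, 22 had enough UMIs, with a median log2 ratio of 0.35. By the 2-fold rule 6 were higher in goblet-like cells and none lower, beside 6.71% and 5.87% of all genes tested. The 6 included the enteroendocrine factors Neurog3, at 4.02 and 19.5 times, and Insm1, at 2.94 and 6.88 times. The Neurog3 ratio of library 1 rests on 2 stem-like UMIs. Cbfa2t3, a corepressor, had 219.3 in goblet-like and 3.31 in stem-like cells of library 2, 66.3 times higher, and 32.5 times higher in library 1. Bhlha15, a factor of cells with a large secretory apparatus, was 25.9 and 14.8 times higher, and Klf4, a goblet differentiation factor, 18.8 and 6.83 times. Lowest were Pou2f3, the tuft cell factor, at 0.669 and 0.531 times, Sox9 at 0.624 and 0.580 times, and Hnf4a, an absorptive lineage factor, at 0.639 and 0.626 times. Between the libraries 3 of the 21 with enough UMIs stood apart in goblet-like cells, all higher in library 2. They were Bhlha15, at 1.94-fold (1.62 to 2.34), Cbfa2t3, at 1.60-fold (1.47 to 1.75), and Fev, at 2.39-fold (1.07 to 5.84) from 24 and 9 UMIs. Of genes with at least 100 UMIs, a minimum that Fev did not reach, 3.36% were higher and 2.87% lower by that rule of 1.5-fold.

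Among 8 relatives of the members, 6 had enough UMIs, and Creb3l2 was the 1 that passed the 2-fold rule in both libraries, at 4.08 times (2.81 to 6.06) in library 2 and 5.53 times (3.78 to 8.26) in library 1. By that rule 6.71% of all genes tested were higher. Creb3l3 was at 1.67 and 2.02 times and Creb3 at 1.85 and 1.79 times, all under the 30.9 and 19.9 times of Creb3l4. The forkhead relatives Foxa1, at 2.58 and 1.90 times, and Foxa2, at 1.84 and 1.81 times, were under the ratios of Foxa3, and Sox9 was at 0.624 and 0.580 times, beside 0.359 and 0.347 times for Sox4. None of the 6 stood apart between the libraries in goblet-like cells by the 1.5-fold rule.

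Genes of the secretory pathway and of O-glycosylation, which build and export mucins and include targets of CREB3-family factors, were mostly higher. By the 2-fold rule in both libraries, 20 of 23 with enough UMIs were higher and none lower, beside 6.71% and 5.87% of all genes tested. Their median log2 ratio was 2.16. The list was picked as genes that make and export mucins, with earlier results of these data known. Its count therefore describes these genes and is no independent evidence of a goblet programme. Agr2, a disulphide isomerase needed to make mucin, was 63.3 and 57.9 times higher, Ern2, a stress sensor of mucous cells, 96.3 and 32.9 times, and Kdelr3, a receptor that returns proteins to the endoplasmic reticulum, 35.0 and 88.8 times. Lowest were Tmed6, at 1.03 and 0.951 times, Sec23a, at 1.21 and 1.20 times, and Sel1l, at 1.97 and 1.68 times. Between the libraries 3 of 23 stood apart, all higher in library 2: Dnajc10 at 1.52-fold, Pdia5 at 1.502-fold and Galnt7 at 1.5-fold. Of genes with at least 100 UMIs, 3.36% were higher and 2.87% lower by that rule. All 3 lay at the 1.5-fold limit, and Ern2 at 1.487-fold and Galnt12 at 1.46-fold fell just under it.

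The genes of most like pattern to each member were taken by Pearson r of log2(CPM + 1) over the 22 class and library sums, among 10975 genes that are neither markers nor members. For Atoh1 they were Cracr2b (r = 0.929), Qsox1, Piwil4 and Gcnt3, and for Spdef Cracr2b (0.964), Gm12511, Rasd2, Ern2 and Chrm1. For Creb3l1 they were Dnajc10 (0.944), Ttc39a, Smim14, Tmco3 and Rasd2, for Creb3l4 Ern2 (0.960), Ano7, Myof, Rap1gapos and Slc2a10, and for Foxa3 Car8 (0.949), Arfgef3, Chrnb4, Ttc39a and Asph. For Gfi1, with its high level in the Ptprc and Cd3 marker cells, they were Tnfaip8 (0.896), Cpd, AW112010, Cmtm7 and Tmem120b, and for Sox4 Mex3a (0.933), Epha4, Dmpk, Limk2 and Cd99l2. These correlations are descriptions over classes that share libraries, and the r of Sox4 with the other 6 members ran from -0.191 to 0.259.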

How the data were processed

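Per the file headers, the authors deposited whole-number UMI counts per gene and barcode in 1 matrix of both libraries, without normalization. The submitters' processing notes list Cell Ranger 2.1.1 and mm10; the cell calling step is not stated. Per the labels' protocols a 3' droplet kit was used, and since the barcodes hold 27 bases the chemistry is not settled.

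Of 12756 barcodes, the 7784 with 500 genes or more and no more than 25% mitochondrial UMIs were kept. Classes were set by marker UMIs per 10000 UMIs with at least 3 markers (2 for Notch ligand marker cells), at thresholds of 64 for goblet, 500 for Paneth, 50 for stem, enteroendocrine and Ptprc and Cd3 markers, 30 for tuft, 100 for enterocyte, 20 for cycle and 3 for Notch ligand markers. The thresholds were set after the score distributions were seen, and the members, lists and alternatives were chosen with earlier results of these data known. Cells passing 2 rules (28 in library 2 and 27 in library 1) or a rule on rare cell types (14 and 3) were left out as the treatment of doublets, except that cells with Paneth and goblet markers formed a class where Muc2, Fcgbp, Clca1 and Zg16 reached 40 per 10000; below that they were kept as Paneth-like. Summed counts gave levels and ratios with exact intervals (scipy 1.17.1). The ratio rule between libraries was run on simulated independent Poisson counts, which share the assumption of the intervals. Real UMIs can cluster in few cells, as those of Sox4 did, so that run cannot show how the rule behaves on them. TMM factors came from edgeR 4.0.16 and were used for scaling only. With 1 library a group no test was run. Named genes were the 7 members, the 5 most alike genes of each, the 3 highest and 3 lowest of each list and every list gene apart between the libraries in goblet-like cells; some genes that this rule names are not reported here. Gene coordinates are those of GENCODE M21 (GRCm38), in which 31107 of the 31253 gene IDs were found; no gene annotated on the same strand overlaps a member.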

Additional observations from a re-analysis of the deposited data

Results flagged for a closer look

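Creb3l1 and Sox4 had library ratios that went opposite ways in different classes; the differences between the classes were not tested. Creb3l1 was higher in library 2 in enteroendocrine-like cells, at 1.62-fold (1.10 to 2.44), and in enterocyte-like cells, at 1.57-fold (1.18 to 2.09), whereas in the Ptprc and Cd3 marker cells it was lower, at 0.332-fold (0.175 to 0.602). The last value rests on 16 UMIs in 15 cells of library 2 and 43 UMIs in 38 cells of library 1, with no more than 3 in a cell. Muc2 was higher in library 2 in each of these classes, at 2.21-fold, 2.44-fold and 2.62-fold. Creb3l1 in enterocyte-like cells was 1.015 times (0.861 to 1.19) and 1.40 times (1.11 to 1.76) its goblet ratio to Muc2. For the Ptprc and Cd3 marker cells this was 1.32 times (0.756 to 2.15) and 9.26 times (6.70 to 12.5). The source of these UMIs was not tested.

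Sox4 was higher in library 2 in the Ptprc and Cd3 marker cells, at 2.82-fold (1.48 to 5.73), and lower in Paneth-like cells, at 0.498-fold (0.361 to 0.680), in enterocyte-like cells, at 0.530-fold (0.356 to 0.781), and in cells that passed no rule, at 0.556-fold (0.455 to 0.678). A single cell of library 2 held 29 of the 41 Sox4 UMIs of the Ptprc and Cd3 marker cells, and without the highest cell of each library the ratio was 0.972 (0.392 to 2.43), an alternative chosen after seeing the data. In enterocyte-like cells 1 cell of library 1 held 21 of 68 UMIs, and the ratio without the highest cells was 0.735 (0.476 to 1.13). Without them the ratio was 0.472 (0.336 to 0.656) in Paneth-like cells and 0.655 (0.525 to 0.816) in cells that passed no rule, both still lower in library 2.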

How the results depend on the processing

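The counts of 6 members higher and 1 lower in goblet-like than in stem-like cells were the same under every alternative run for them: no cell filter, a stricter one, TMM scaling, totals without mitochondrial and marker genes, thinning, doubled class thresholds, cells of 2 classes kept, and, chosen after seeing the data, shared barcodes left out. The count of 2 members apart between the libraries in goblet-like cells became 0 with a 2-fold rule. Split by tertiles, an alternative chosen after seeing the data, it was 7 in the low and 0 in the high tertile, where 5.86% and 2.72% of all genes were higher by the same rule. In stem-like cells the count of 1 became 0 with the stricter cell filter, with thinning and with the 2-fold rule, and 3 with doubled class thresholds. In Paneth-like cells the count of 2 became 4 with TMM scaling, 0 with thinning, 1 with the 2-fold rule and 1 with cells of 2 classes kept. Thinning leaves fewer UMIs and the 2-fold rule asks for more; the cause of the other changes was not tested. Of the library ratios in goblet-like cells over all tertiles, that of Spdef ran from 1.55 to 1.78 and that of Gfi1 from 1.79 to 2.41, while that of Creb3l4 ran down to 0.903, with thinning. With thinning, the ratio of Gfi1 in goblet-like over stem-like cells of library 1 had no value, as no stem-like UMI was left. No paired analysis was possible because each group is 1 library. Depth limits Gfi1 in stem-like cells and Creb3l4 in tuft-like cells, which rest on 12 UMIs or fewer a library.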
